A study of Homo sapiens with 48 samples.

Results

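Nodal pathway genes were followed across 48 libraries of a human embryonic stem cell study, in which 4 of them were members: GDF3, a ligand, TDGF1 (also named CRIPTO), the coreceptor, and LEFTY1 and LEFTY2, a pair of secreted inhibitors. Members were all probes of the panel whose gene symbol is one of these 4, which gave 11 probes of 1113 and 4 genes of 452. GDF3 had 2 probes and each of the other genes had 3.

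Nodal and its relatives of the TGF-beta family signal through activin receptors and SMAD2/SMAD3, and Nodal and GDF3 need the membrane-anchored coreceptor TDGF1 to do so. LEFTY1 and LEFTY2 are induced by the signal and block it outside the cell, which closes a negative feedback loop. In human pluripotent cells the pathway helps to maintain the undifferentiated state, and high Nodal or activin signalling is the usual route to definitive endoderm.

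The cells were the WA09 line (also called H9) of human embryonic stem cells, labelled as normal in genotype, and RNA was read by RASL-Seq, in which pairs of DNA probes are ligated side by side on captured polyadenylated RNA and counted by sequencing. The hESC group (4 libraries) was untreated. Ectoderm cultures (4 libraries) received LDN-193189, a BMP type I receptor inhibitor, at 100 nM and A83-01, an inhibitor of the Nodal/activin/TGF-beta type I receptors ALK4, ALK5 and ALK7, at 2 µM in E6 medium for 6 days. Mesoderm and endoderm cultures (4 libraries each) were made with commercial induction kits for 5 days, whose agents the labels do not list. Embryoid bodies (EBs), floating aggregates of differentiating cells, were seeded at 20000 cells per well and kept in E6 medium for 7 days, with 16 libraries that had the CEPT cocktail (chroman 1, emricasan, polyamines and trans-ISRIB, used to help dissociated cells survive) and 16 that had the ROCK inhibitor Y-27632 during the first 24 hours. The labels do not say whether replicates came from separate cultures or whether a library held a single EB, so p-values measure the spread between these libraries, which may be technical.

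Libraries held 379810 to 5577868 reads, with a median of 3583316, and only replicate 15 of the Y-27632 EBs fell under 0.25 of the median. Summed markers followed the labels in the control groups. The endoderm list (5 genes on the panel) reached 5907 to 6453 CPM (depth-scaled counts) in endoderm and at most 201 in the other control groups. The mesoderm list (5 genes) reached 2080 to 2316 CPM in mesoderm and at most 173 in the other control groups, and the neural ectoderm list (7 genes) 2896 to 3139 CPM in ectoderm against at most 1714 in the others. The pluripotent list (8 genes) was highest in hESC, at 9662 to 10508 CPM. It was still at 7228 to 7662 CPM in ectoderm and at most 5345 in endoderm and mesoderm. The sum does not show each gene. NANOG, which is on this list, averaged 1772 CPM in hESC and 0.116 in ectoderm, and 1 to 2 of the 8 genes were at 0 in each ectoderm library. In these bulk samples, fewer cells of a type and less RNA per cell cannot be told apart.

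The deposited names place each probe by a RefSeq transcript and a position in it. On GRCh38.p14, RefSeq puts GDF3 at chr12:7689784-7695775, TDGF1 at chr3:46574535-46582457, LEFTY1 at chr1:225886282-225889146 and LEFTY2 at chr1:225936603-225941220, so that the LEFTY genes are neighbours. Both GDF3 probes name NM_020634 (positions 518 and 601). TDGF1 probes 724 and 725 name NM_003212 (443 and 1506), and probe 998 names NM_001174136 (1081), where it falls in the 3′ UTR in a stretch that the other TDGF1 transcript shares in full (50 of 50 bases). LEFTY1 probes 425, 426 and 427 name NM_020997 (1540, 1217 and 1323), all in the 3′ UTR, where 23 to 25 of 50 bases match LEFTY2 at best. LEFTY2 probes 428, 429 and 430 name NM_003240 (1341, 1504 and 1906). Counted from the RefSeq start all LEFTY2 positions lie in the 3′ UTR and share 22 to 25 of 50 bases with LEFTY1. Counted from the start of the longer GENCODE transcript, probe 428 would instead lie in coding sequence that LEFTY1 shares in all 50 bases, while 429 and 430 would still share only 22 and 24. Which transcript version the probes were designed on is not given in the sources used here, so reads of probe 428 are uncertain between the LEFTY genes unless probes 429 and 430 moved with it. The stretches of all TDGF1 probes match the related gene CRIPTO3 (TDGF1P3) in 48 to 50 of 50 bases, and that of probe 724, counted from the RefSeq start, also matches TDGF1P2 in 50, so TDGF1 reads could include RNA of these copies. Within each gene the probe with the highest mean over the 6 groups is called the leading probe (GDF3 315, TDGF1 998, LEFTY1 425, LEFTY2 428). Probes differ in capture, so read levels were compared between groups and not between genes.

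GDF3, a TGF-beta family ligand expressed in pluripotent cells, was highest in hESC, present in endoderm and the EBs, and at or near 0 in ectoderm and mesoderm. Its promoter is shown with that of TDGF1 because both genes fell in the ectoderm and mesoderm cultures. The stretches run from 250 to 2 bases before the start site in RefSeq's GRCh38.p14 promoter table, which held entries for these 2 of the 4 genes. Capitals mark matches, on either strand, to the FOXH1 motif TGTNNATT (AATNNACA on the other strand), FOXH1 being the DNA-binding partner of SMAD2/SMAD3.
GDF3, chr12:7695777-7696025, minus strand: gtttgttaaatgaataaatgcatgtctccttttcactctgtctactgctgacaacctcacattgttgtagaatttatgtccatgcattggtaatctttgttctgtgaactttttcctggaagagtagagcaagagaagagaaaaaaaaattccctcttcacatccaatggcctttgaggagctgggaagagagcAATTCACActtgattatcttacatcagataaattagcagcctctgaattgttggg
TDGF1, chr3:46574285-46574533, plus strand: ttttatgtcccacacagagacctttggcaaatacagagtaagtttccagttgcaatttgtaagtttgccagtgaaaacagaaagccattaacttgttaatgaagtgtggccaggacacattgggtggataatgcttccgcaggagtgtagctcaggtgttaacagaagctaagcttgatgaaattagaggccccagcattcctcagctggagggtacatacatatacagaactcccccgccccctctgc
The GDF3 stretch held 1 match, AATTCACA, starting 56 bases before the start site, and the TDGF1 stretch none. For TDGF1 RefSeq gives another start site, at chr3:46577788, whose stretch is not shown and held no match either. Of 35116 promoter stretches of this length, 9.86% held the motif, so a match is a description and not a binding site. The SMAD motif GTCTG, which reads as CAGAC on the other strand, was in 37.9% of all stretches and the octamer ATGCAAAT (ATTTGCAT) in 1.62%. Neither was in the GDF3 stretch or in either TDGF1 stretch.

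GDF3 probe 315 had 442, 624, 413 and 459 reads in hESC replicates 1 to 4, 0 reads in all 4 ectoderm libraries, 4, 4, 2 and 1 reads in mesoderm, and 121, 112, 92 and 118 reads in endoderm. The control groups did not overlap, but ectoderm and mesoderm were not resolved from each other. The mesoderm mean of 0.948 CPM lay under the 1.12 CPM that 3 reads per library make in ectoderm, and probe 316 overlapped between them. In TMM-scaled CPM the hESC mean was 227 ± 12.2 (SD, n = 4) and the endoderm mean 45.4 ± 2.47. The ectoderm level was at least 204-fold lower than hESC, taking 3 reads per library as the limit that a count of 0 allows (edgeR adjusted p = 7.49e-15). The mesoderm level was lower by a log2 fold change of -8.12 ± 0.23 (SE; adjusted p = 1.27e-14) and the endoderm level by -2.49 ± 0.15 (adjusted p = 1.34e-10). Probe 316 gave an at least 61.9-fold lower level in ectoderm, and a change of -2.95 ± 0.21 in endoderm, and was lower in mesoderm with 0, 1, 2 and 1 reads, too few for a fold change. All 3 were called in edgeR at an adjusted p under 0.05. When all 48 libraries shared a single fit, the endoderm change of probe 315 was -2.42 and no longer passed (edgeR adjusted p = 0.0975).

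TDGF1, which anchors Nodal and GDF3 to their receptors, fell in ectoderm and mesoderm but rose in endoderm. Probe 998 had 4932, 5166, 3437 and 3459 reads in hESC, 0, 3, 1 and 34 in ectoderm, 155, 202, 85 and 176 in mesoderm, and 15683, 17026, 12023 and 18493 in endoderm. No control group overlapped another. The order was endoderm (6440 ± 401 CPM, SD, n = 4), hESC (1991 ± 252), mesoderm (51.2 ± 10.2) and ectoderm (2.97 ± 4.98). Against hESC the log2 fold change was 1.53 ± 0.28 in endoderm (edgeR adjusted p = 0.000153), -5.53 ± 0.35 in mesoderm (7.63e-10) and -9.23 ± 0.46 in ectoderm (2.93e-11). Without ectoderm replicate 4, the library with 34 reads, the fit gave -11.84. The remaining 0, 3 and 1 ectoderm reads are too few for a fold change. Probes 724 and 725 were called in the same directions, with endoderm changes of 1.51 ± 0.13 and 1.65 ± 0.14. GDF3 and TDGF1 thus took opposite directions from hESC to endoderm and the same direction in the other lineages. The endoderm rise of probe 998 was 1.59 in the single fit of 48 libraries, where it did not pass (edgeR adjusted p = 0.167).

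LEFTY1, an inhibitor that keeps Nodal from its receptors, rose in endoderm and fell in ectoderm and mesoderm. Probe 425 had 151, 188, 104 and 145 reads in hESC, 1, 0, 5 and 66 in ectoderm, 0, 0, 1 and 3 in mesoderm, and 68605, 68634, 50189 and 84131 in endoderm. Every endoderm library lay above every hESC library, and these above all ectoderm and mesoderm libraries. The endoderm mean was 27588 ± 2441 CPM (SD, n = 4) and the hESC mean 68.5 ± 6.83, a log2 fold change of 8.48 ± 0.54 (SE; edgeR adjusted p = 2.05e-09). Probes 426 and 427 rose by 8.24 ± 0.39 and 7.99 ± 0.44. In mesoderm probe 425 was called lower (edgeR adjusted p = 3.16e-06) with 4 reads in all 4 libraries together, and probes 426 and 427 with 2 reads each, too few for a fold change. In ectoderm probe 425 fell by 3.48 ± 0.59 (edgeR adjusted p = 7.56e-05), with a change of -2.88 without ectoderm replicate 2. Without ectoderm replicate 4 the fit gave -6.43, but the remaining 1, 0 and 5 reads are too few for a fold change.

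LEFTY2, the second inhibitor and a paralog of LEFTY1, rose in endoderm and fell in mesoderm. Probe 428 had 74, 100, 53 and 61 reads in hESC, 4, 3, 36 and 429 in ectoderm, 1, 4, 18 and 3 in mesoderm, and 618564, 672856, 597708 and 702441 in endoderm. By read count, which also depends on each probe's capture, it was first of the 1113 probes in each endoderm library and between 476 and 503 in hESC. Probe 429 had 213094 to 295569 reads in endoderm. The endoderm mean of probe 428 was 266866 ± 19710 CPM (SD, n = 4) against 33.4 ± 3.92 in hESC, a log2 fold change of 12.79 ± 1.20 (edgeR adjusted p = 3.01e-07). Probes 429 and 430, whose stretches match LEFTY1 in at most 24 of 50 bases under either placement, rose by 12.16 ± 1.07 and 12.30 ± 0.84. In mesoderm probes 428 and 429 fell, with log2 fold changes of -4.14 ± 1.36 and -4.42 ± 1.52 (edgeR adjusted p = 0.0135 and 0.0178), while probe 430 gave -3.72 ± 1.63 (edgeR adjusted p = 0.0521). Without mesoderm replicate 4 the change of probe 428 was -3.68 with an edgeR adjusted p of 0.0501, and without replicate 3, the library with 18 reads, it was -5.32. Probe 429 no longer passed without mesoderm replicate 2 or 4 (edgeR adjusted p = 0.0588 and 0.0605), and probe 428 did not pass in the single fit of 48 libraries (0.0738).

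The 6 LEFTY probes together took 28.7% to 32.5% of all reads in the endoderm libraries, against 0.0124% to 0.0154% in hESC. LEFTY2 alone took 26.2% to 30.2% in endoderm and LEFTY1 2.23% to 2.50%. In ectoderm the joint share ran from 0.000198% to 0.0278% and in mesoderm from 0.000132% to 0.00153%. So large a share lowers the share left for all other probes, and the TMM factors of the endoderm libraries were 0.649 to 0.684. All 11 member calls between endoderm and hESC kept their direction and passed under the 4 other scalings tried.

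**Figure D1:**
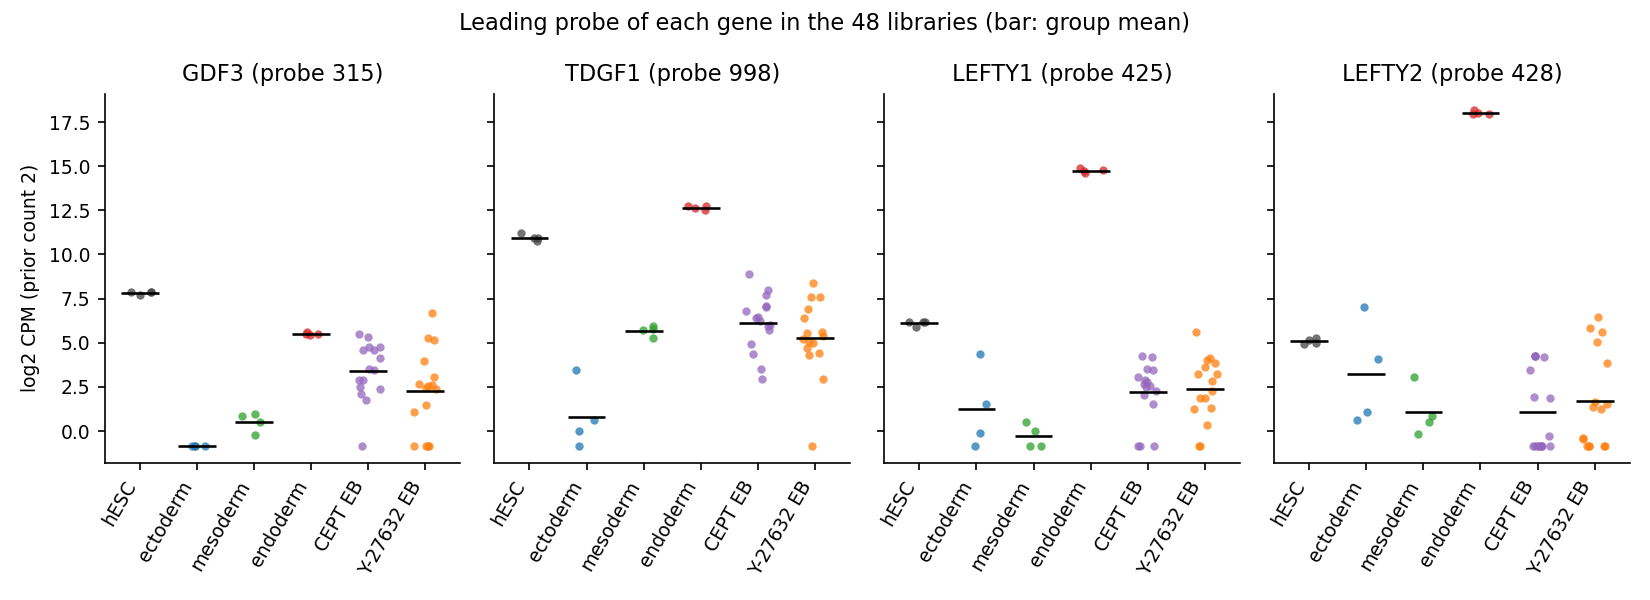
Log2 CPM (vertical axis, prior count 2) of the leading probe of GDF3, TDGF1, LEFTY1 and LEFTY2 in the 48 libraries, by group, with points for libraries and bars for group means. GDF3 is highest in hESC, the other 3 genes are highest in all 4 endoderm libraries, and ectoderm replicate 4 stands above the other ectoderm libraries for TDGF1, LEFTY1 and LEFTY2.

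**Figure D2:**
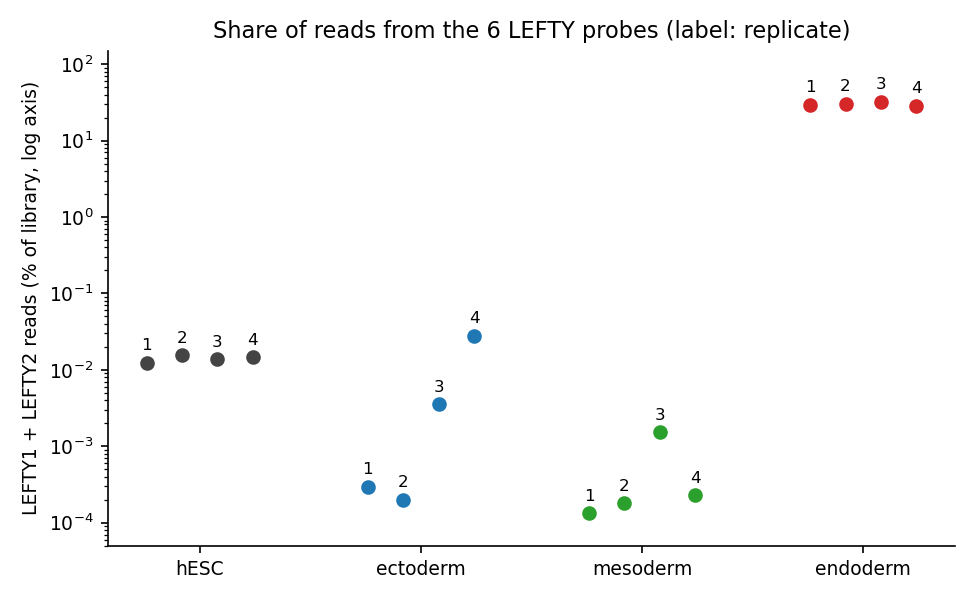
Share of each control library's reads from the 6 LEFTY probes (percent, log axis), with points labelled by replicate number. Endoderm libraries sit at 28.7% to 32.5%, hESC at 0.0124% to 0.0154%, and ectoderm replicate 4 at 0.0278%.

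The ectoderm libraries, which received the ALK4/5/7 inhibitor, were not alike for the LEFTY genes. For LEFTY2 probe 428 the values were 1.56, 0.983, 16.7 and 131 CPM in replicates 1 to 4, around an hESC range of 29.7 to 38.1 CPM. Replicates 1 to 3 lay under every hESC library and replicate 4 above all of them. The change from hESC over all 4 libraries was 0.16 ± 0.91 (edgeR adjusted p = 0.882), with a 95% interval from -1.62 to 1.95. Probes 429 and 430 gave 0.35 ± 0.91 and 0.51 ± 0.96, neither called. Without replicate 4 the LEFTY2 probes changed by -2.60, -2.43 and -2.31 and all 3 were called (edgeR adjusted p = 0.000908, 0.00212 and 0.0129). GDF3 was at 0 reads in replicate 4 as in the other ectoderm libraries.

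Genes that were abundant in endoderm were looked at beside these values. NPPB, a natriuretic peptide gene with 28413 to 56056 reads in endoderm and 0 in hESC, had 21, 29, 20 and 111 reads in ectoderm replicates 1 to 4. SOX17 had 0, 0, 1 and 7 and GATA6 had 2, 5, 4 and 17, both being endoderm transcription factors. Replicate 4 was highest for all of these, but not for HHEX (4, 8, 3 and 7), FOXA1 (62, 86, 49 and 74) or FOXA2 (0, 1, 0 and 0). In endoderm HHEX, FOXA1 and FOXA2 had 229 to 3394 reads, against at least 597708 of LEFTY2 probe 428. A part of endoderm RNA in ectoderm was not estimated from them. The summed endoderm list ran from 26.4 to 32.8 CPM over the ectoderm libraries, against 5907 to 6453 in endoderm. FOXA1 alone made up 22.7 to 28.2 CPM of the ectoderm sums, so these sums were mostly FOXA1. The part of endoderm RNA in the LEFTY values of replicate 4 was not tested.

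**Figure D3:**
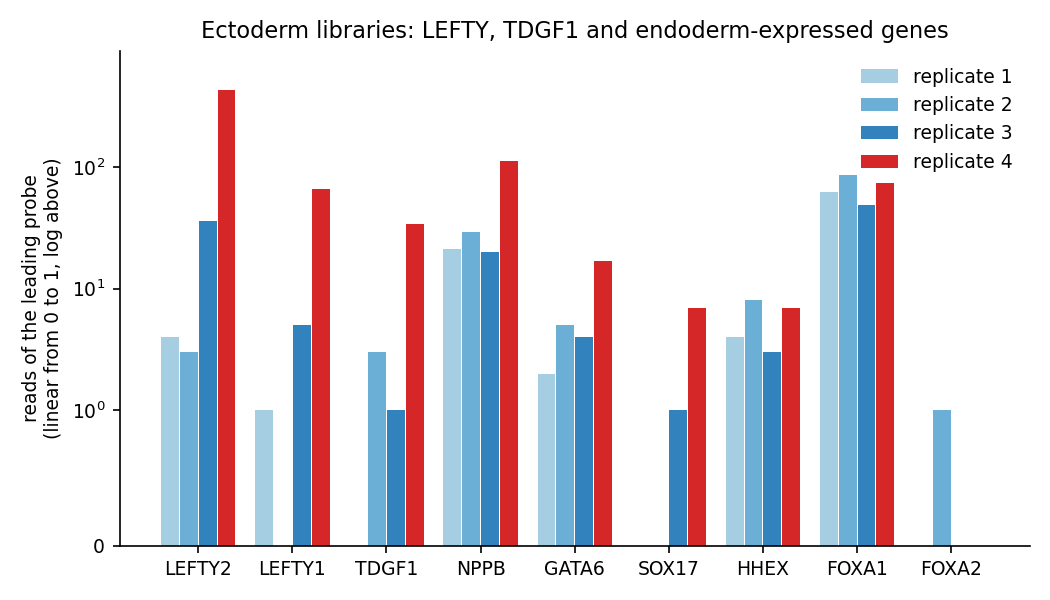
Reads of the leading probes of LEFTY2, LEFTY1, TDGF1 and 6 endoderm-expressed genes in the 4 ectoderm libraries (vertical axis linear from 0 to 1 and logarithmic above; bars are single libraries). Replicate 4 has 429 LEFTY2 reads against 3 to 36 in the others and 111 NPPB reads against 20 to 29. It is not highest for HHEX, FOXA1 and FOXA2, which have far fewer reads in endoderm than LEFTY2 or NPPB.

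The count of member probes called in each comparison is given beside the share of all tested probes called in that direction, since a large part of the panel changed between these cultures. In ectoderm against hESC 8 of 11 member probes were lower and 0 higher, and 38.5% of the 903 tested probes were lower. In mesoderm 10 of 11 were lower, against 43.5% of all. In endoderm 9 were higher and 2, both of GDF3, were lower, against 38.4% and 39.8% of all probes. The median log2 fold change of the 11 members was -3.56 in ectoderm, -5.53 in mesoderm and 7.99 in endoderm, and that of all tested probes was 0.14, -0.18 and 0. All 11 passed the filter on low counts, in part through the group where they are high. Fits of only the 2 groups compared kept 7 of the 8 ectoderm calls and 9 of the 10 mesoderm calls, and did not test the other 1 in each. The 11 probes are repeat readings of 4 genes. With DESeq2, 4 of the 11 received no p-value in each control comparison, and the remaining 7 were called in each of these 3.

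**Figure D4:**
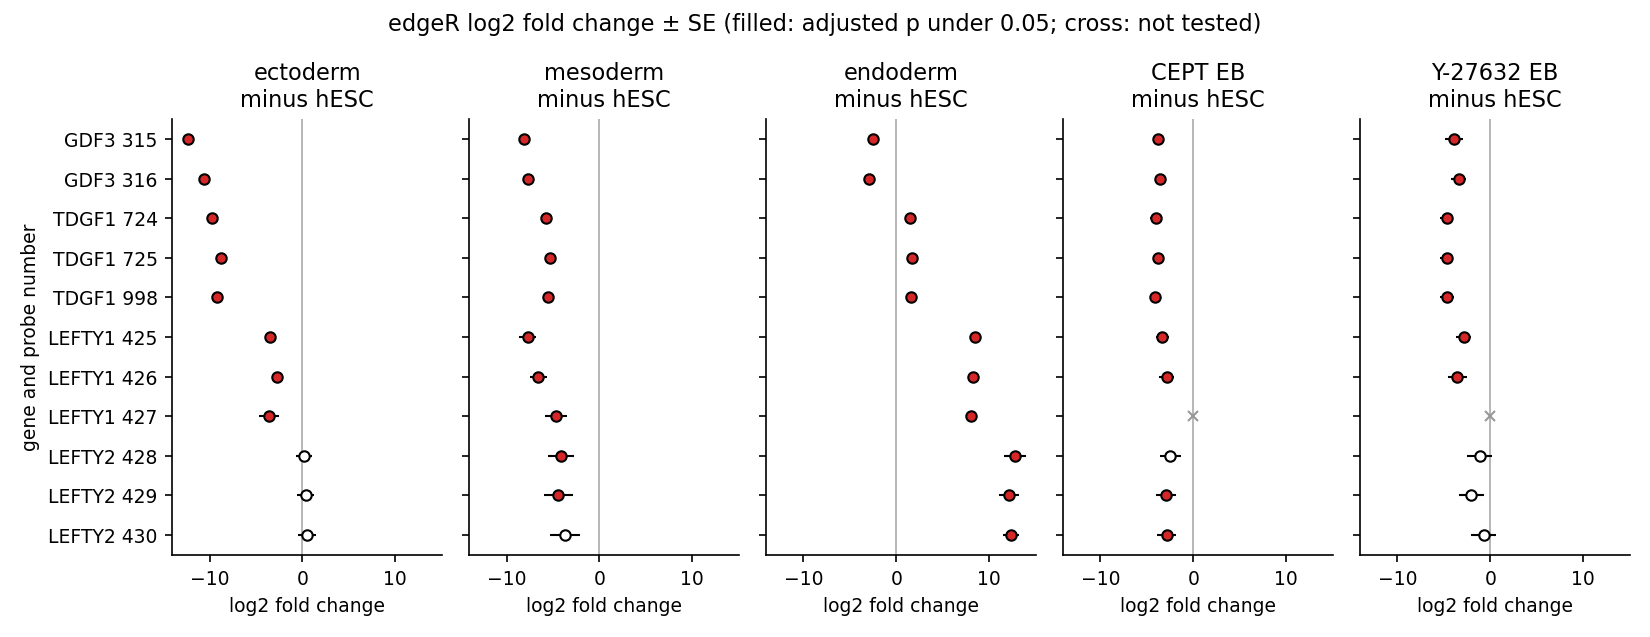
edgeR log2 fold change (horizontal axis, with SE bars) of the 11 member probes in each group against hESC, with filled points for an adjusted p under 0.05 and crosses for probes not tested; the ectoderm points of GDF3, at 0 reads, depend on the prior count, and the mesoderm points of LEFTY1 and of GDF3 probe 316 rest on 2 to 4 reads each. In endoderm all TDGF1, LEFTY1 and LEFTY2 probes lie to the right of 0, at 1.51 to 12.79, while GDF3 lies to the left in all 5 groups.

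Between lineages, all 11 member probes were lower in ectoderm than in endoderm, with 39.9% of all probes lower, and all 11 were lower in mesoderm than in endoderm, with 39% of all probes lower. LEFTY2 probe 428 differed by -12.63 ± 1.18 and -16.93 ± 1.42 in these comparisons and TDGF1 probe 998 by -10.76 ± 0.47 and -7.06 ± 0.37. Without ectoderm replicate 4 the ectoderm values were -15.37 and -13.35, and TDGF1 then had too few ectoderm reads for a fold change. Without mesoderm replicate 3 the LEFTY2 mesoderm value was -18.22. GDF3 probe 315 was at least 40.7-fold lower in ectoderm than in endoderm and differed by -5.63 ± 0.25 in mesoderm. In ectoderm against mesoderm 5 member probes were higher and 5 lower, against 42% and 38.2% of all probes. Of these 10, 7 passed the filter on low counts only through hESC or endoderm, and a fit of ectoderm and mesoderm alone tested and called the 3 TDGF1 probes (-3.70 for probe 998, edgeR adjusted p = 0.00106). The lower ones were the GDF3 and TDGF1 probes, with -3.70 ± 0.49 for TDGF1 probe 998, and GDF3 had too few reads in both groups for a fold change. The call of GDF3 probe 316 was lost without any single ectoderm library or mesoderm replicate 3 (edgeR adjusted p of 0.0574 to 0.108). The higher ones were 2 LEFTY1 and all 3 LEFTY2 probes, with 4.31 ± 1.31 for LEFTY2 probe 428 and too few mesoderm reads for a fold change of LEFTY1. Those rested on ectoderm replicate 4. With it LEFTY1 probe 425 had an edgeR adjusted p of 0.0125 and without it one of 0.22, while LEFTY2 probe 428 then gave 1.55 (edgeR adjusted p = 0.128). In that setting 4 of the 10 member calls were left. The TDGF1 fit then gave -6.30, with too few ectoderm reads for a fold change. Leaving out mesoderm replicate 3 moved LEFTY2 to 5.66. The LEFTY and GDF3 leading probes did not pass in the single fit of 48 libraries (edgeR adjusted p = 0.0531, 0.0585 and 0.204).

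In endoderm the leading LEFTY2 probe rose further than that of LEFTY1. The log2 difference of LEFTY2 probe 428 minus LEFTY1 probe 425 was -1.03 ± 0.15 (SD, n = 4) in hESC and 3.28 ± 0.22 in endoderm, where every library lay above the hESC range of -1.23 to -0.90. The shift was 4.30, with an exact two-sided permutation p of 0.0286, the smallest that 4 against 4 allows, and 0.0381 after Benjamini-Hochberg adjustment over 4 comparisons. With all probes of a gene summed the endoderm shift was 4.14, with an adjusted exact p of 0.0571. In ectoderm and mesoderm the difference was 1.97 ± 0.76 and 1.37 ± 1.34, and the shifts from the same hESC libraries were 3.00 and 2.40, with the same exact p. In mesoderm and in ectoderm replicates 1 and 2 both genes had 4 reads or fewer apart from the 18 LEFTY2 reads of mesoderm replicate 3. At such counts the prior count of 2 pulls the difference toward 0, which itself lies above the hESC value, so the mesoderm and ectoderm p-values are not read as a shift. The summed shifts there were 2.72 and 2.05, with adjusted exact p of 0.0571 and 0.0762.

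In the EBs the question of the design was whether the first-day treatment changed the outcome. No member probe was called between CEPT and Y-27632 EBs (0 of the 6 tested, 0 at an unadjusted edgeR p under 0.05, 0 with DESeq2), where 23.6% of all 867 tested probes changed in either direction. TDGF1 probe 998 ran from 14 to 1983 reads with a median of 260.5 in CEPT EBs and from 0 to 1348 with a median of 209 in Y-27632 EBs. GDF3 probe 315 ran from 0 to 165 (median 34) and from 0 to 421 (median 29). LEFTY1 probe 425 ran from 0 to 73 (median 17) and from 0 to 199 (median 23). For none of these 3 genes did the arms separate. The CEPT minus Y-27632 change was 0.55 ± 0.56 for TDGF1, with a 95% interval from -0.55 to 1.65, 0.12 ± 0.71 for GDF3 (-1.28 to 1.51) and -0.51 ± 0.64 for LEFTY1 (-1.76 to 0.75). LEFTY2 did not pass the filter on low counts. Its probe 428 was at 0 reads in 8 of 16 CEPT libraries and in 5 of 16 Y-27632 libraries, with highest values of 76 and 402 reads.

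Both EB arms lay well under hESC. In CEPT EBs 9 of 10 tested member probes were lower, against 31.2% of all probes, and in Y-27632 EBs 7 of 10, against 32.6%. TDGF1 probe 998 changed by -4.09 ± 0.59 in CEPT EBs (edgeR adjusted p = 1.63e-06) and by -4.67 ± 0.70 in Y-27632 EBs (3.4e-06). GDF3 probe 315 changed by -3.79 ± 0.57 and -3.95 ± 0.95 (edgeR adjusted p = 3.61e-06 and 0.000822), and by -4.71 without replicate 16 of the Y-27632 EBs. LEFTY1 probe 425 changed by -3.34 ± 0.67 and -2.89 ± 0.78 (edgeR adjusted p = 0.000109 and 0.00233). For these 3 leading probes no EB library reached the lowest hESC library. LEFTY2 probe 428 gave -2.50 ± 1.12 in CEPT EBs (edgeR adjusted p = 0.0505), where probes 429 and 430 were called at -2.98 ± 1.07 and -2.88 ± 1.01. Probe 428 passed when any one of CEPT replicates 1, 5, 7, 9, 11 and 15 was left out, with an edgeR adjusted p of 0.0333 to 0.0470. In Y-27632 EBs no LEFTY2 probe was called (-1.16 ± 1.32 for probe 428, edgeR adjusted p = 0.433), and its range overlapped that of hESC. The arms were compared with the same hESC libraries.

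Against ectoderm, which had the ALK4/5/7 inhibitor, the EBs held more GDF3 and TDGF1. In CEPT EBs 5 of 10 tested member probes were higher and 3 lower, against 38.4% and 34.3% of all probes, and in Y-27632 EBs 5 of 10 were higher, against 32.6%. The higher ones were the GDF3 and TDGF1 probes in both arms. GDF3 probe 315 averaged 15.8 CPM in CEPT and 14.4 in Y-27632 EBs, at least 14.1-fold and 12.9-fold above the limit for the ectoderm libraries, and without replicate 16 of the Y-27632 EBs the latter was at least 7.52-fold. TDGF1 probe 998 changed by 5.09 ± 1.16 and 4.21 ± 1.33 (edgeR adjusted p = 0.00047 and 0.00751). Without ectoderm replicate 4 the fits gave 7.62 and 7.18, with too few ectoderm reads left for a fold change. The ranges overlapped in both arms, and the call of TDGF1 probe 725 in Y-27632 EBs was lost without ectoderm replicate 1, 2 or 4 (edgeR adjusted p of 0.0504 to 0.0576). The 3 lower probes in CEPT EBs were those of LEFTY2, at -2.80 ± 1.21 for probe 428 (edgeR adjusted p = 0.0421), and none was called without ectoderm replicate 4 (-0.28 for probe 428, adjusted p = 0.885). The call of probe 428 was also lost when CEPT replicate 8, 10, 12 or 16 was left out (edgeR adjusted p of 0.0519 to 0.0577). DESeq2 did not call it (adjusted p = 0.161). LEFTY1 probe 425 did not pass in either arm (0.10 ± 1.09 and 0.25 ± 1.17, edgeR adjusted p = 0.940 and 0.857). Nor did it pass without ectoderm replicate 4, where it gave 2.76 and 3.42 on few ectoderm reads (edgeR adjusted p = 0.103 and 0.0705).

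Single EB libraries differed widely. In CEPT EBs replicate 7 had the most TDGF1 (477 CPM, 1983 reads) and also 39.7 CPM of GDF3, 17.6 of LEFTY1 and 18.3 of LEFTY2. In Y-27632 EBs replicate 16 was highest for all 4 genes, at 333 CPM of TDGF1, 104 of GDF3, 49.1 of LEFTY1 and 85.9 of LEFTY2, while replicate 9 had 0 reads of TDGF1 and GDF3. NANOG, a pluripotency factor, was at 135 CPM in the former library and 97.5 in the latter, the highest of their arms, where the medians were 35.5 and 22.6 and hESC held 1540 to 1932 CPM. POU5F1, another pluripotency factor, read only 4.95 to 11.03 CPM in hESC, so its low EB values are not read as a loss. It was at 1.44 CPM in CEPT replicate 7 and 0 in Y-27632 replicate 16, where the highest values of the arms were 6.24 and 1.51. The summed pluripotent list was at 3785 and 3863 CPM in these libraries, with highest values of 4275 and 3863 in the arms. SOX17 was at 6.02 CPM and 0 in these libraries, against 1726 to 2382 in endoderm. The share of the EB spread in the members that goes with residual pluripotent or with endoderm cells was not tested.

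Over the 16 libraries of an arm, GDF3 and TDGF1 went together. In CEPT EBs Pearson's r was 0.82 and Spearman's rho 0.84 (permutation p = 6e-05 and 0.00012, adjusted over 12 pairs 0.00072 for each), and r was 0.78 without the 2 libraries farthest from the median of GDF3. In Y-27632 EBs r was 0.72 and rho 0.63 (permutation p = 0.00088 and 0.0115, adjusted 0.00264 and 0.023), and 0.75 without the 2 farthest. All 6 pairs of member genes had an adjusted permutation p under 0.05 for r in CEPT EBs, with r from 0.56 to 0.82, and 4 of 6 did in Y-27632 EBs, or 1 of 6 with a prior count of 0.5. By Spearman's rho, 6 of 6 pairs passed in CEPT EBs and 2 of 6 in Y-27632 EBs. A share over all gene pairs of the panel is not given, so these counts do not set the members apart from other genes. The LEFTY1-TDGF1 value in CEPT EBs was 0.56 and dropped to 0.29 without the 2 farthest libraries, so it rested on them. With LEFTY2 at 0 reads in 8 CEPT libraries, its pairs largely set libraries with reads against libraries without. Spearman's rho of the member levels with the library total ran from -0.11 to 0.41.

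**Figure D5:**
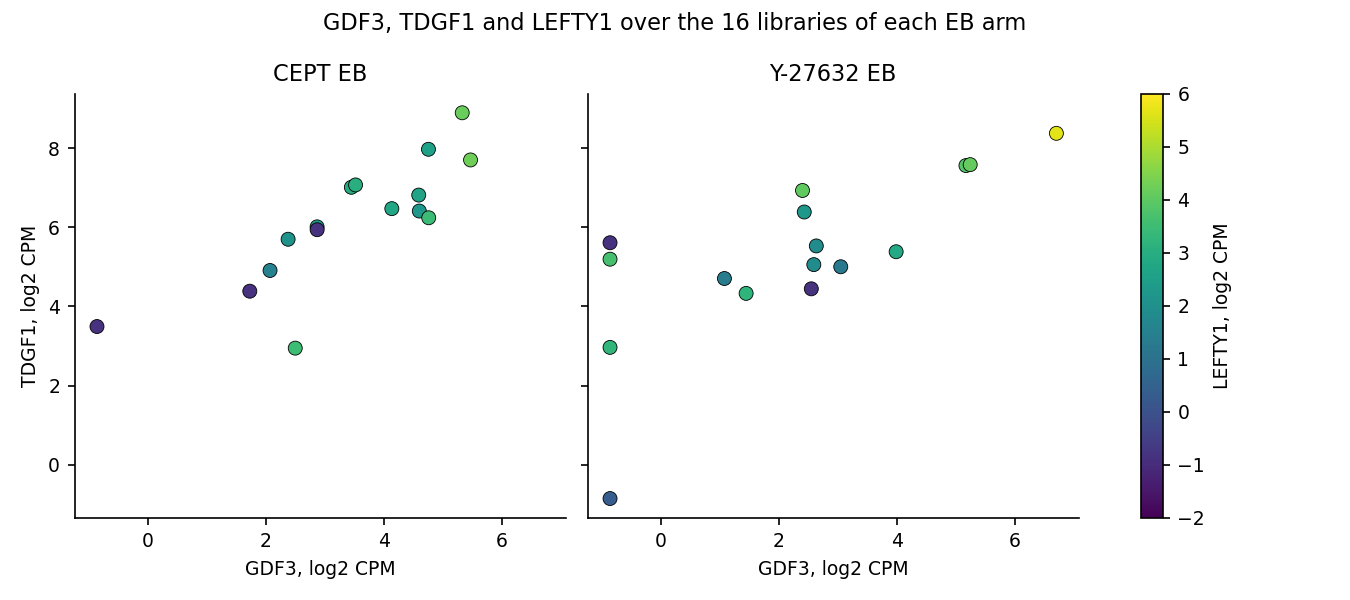
GDF3 (horizontal) against TDGF1 (vertical), both in log2 CPM, over the 16 libraries of each EB arm, with the colour giving LEFTY1 in log2 CPM. Points rise together in both arms (r of 0.82 and 0.72), and replicate 16 of the Y-27632 EBs is at the top right with the highest LEFTY1.

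Of a list of 58 other genes of the pathway and of the BMP side, 13 were on the panel: the ligand NODAL, 8 reported targets and 4 genes of the BMP side, with none of the listed receptors, SMADs of the Nodal branch or other inhibitors among them. Of these 13, 5 were higher and 4 lower in ectoderm than in hESC, 6 and 3 in mesoderm, and 8 and 3 in endoderm. Over the 903 tested probes the higher and lower shares were 43.2% and 38.5% in ectoderm, 34% and 43.5% in mesoderm and 38.4% and 39.8% in endoderm. NODAL itself moved in the same directions as TDGF1 and LEFTY1. It had 15 to 25 reads in hESC, 0 to 2 in ectoderm and mesoderm and 422 to 660 in endoderm, where its log2 fold change was 4.53 ± 0.20 (edgeR adjusted p = 1.23e-13). NODAL was called lower in ectoderm and mesoderm, with too few reads there for a fold change. NANOG, a pluripotency factor and reported SMAD2/SMAD3 target, followed GDF3. Its leading probe averaged 1772 CPM in hESC, 63.6 in endoderm (-4.97 ± 0.15, edgeR adjusted p = 4.1e-16), 3.18 in mesoderm and 0.116 in ectoderm. The endoderm regulators FOXA2, LHX1 and EOMES averaged 312, 390.3 and 410 CPM in endoderm and at most 10.9 in the other control groups. SOX17 averaged 2036 CPM in endoderm and at most 0.652 in the others. GATA6 averaged 2536 CPM in endoderm and also 64.4 in mesoderm. T (TBXT), a mesoderm regulator, averaged 1060 CPM in mesoderm and 47.9 in endoderm. Between the EB arms 3 of the 9 tested genes were higher with CEPT and none lower, against 10.6% of all tested probes higher and 13% lower, namely GDF15 (3.26 ± 0.52), LHX1 (1.34 ± 0.50) and CDKN1A (0.69 ± 0.16). GDF15 is a stress-induced member of the TGF-beta family and CDKN1A a cell cycle inhibitor.

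Profiles over the 6 group means were compared among 373 genes outside the 4, by the root mean square (RMS) difference of centred log2 CPM, as a description. For GDF3 the nearest were IDO1 (RMS difference 0.86, r = 0.96), NANOG (0.94, r = 0.98) and L1TD1 (1.58, r = 0.94). For TDGF1 they were HHEX (1.56, r = 0.92), GAL (1.63, r = 0.95) and NODAL (1.88, r = 0.89). CYP26A1, a retinoic acid-degrading enzyme, was nearest to both LEFTY1 (1.39, r = 0.97) and LEFTY2 (2.84, r = 0.90). For LEFTY1 it was followed by HHEX (2.07, r = 0.96) and NODAL (2.21, r = 0.99). For LEFTY2 it was followed by NPPB (2.86, r = 0.88) and SOX17 (2.90, r = 0.90). Each r is over 6 groups, which share the library scaling.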

How the data were processed

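RASL-Seq read counts of 1113 probes of 452 genes in 48 libraries were taken as the authors deposited them, raw and not normalised, per the file headers. Per the labels' protocols, polyadenylated RNA was captured, probe pairs were ligated and the products were amplified by PCR and sequenced, with no molecular identifiers mentioned. The counting software's version and mismatch limit are not given in the sources used here. The submitters' processing notes name hg38 and DESeq2 without a role. The merged table matched the 48 library files, and 16 of its columns belong to no library listed and were not used.

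Library totals ran from 379810 to 5577868 reads, which sets the precision of low values. Probes were filtered by filterByExpr, scaled by TMM and tested with edgeR 4.0.16 (R 4.3.3; robust quasi-likelihood, two-sided, Benjamini-Hochberg over all tested probes, threshold 0.05). The 16 control libraries shared 1 fit, and each EB comparison used only its 2 groups. CPM and log2 CPM (prior count 2) used TMM over all 48 libraries. Where all libraries of a group were at 0, folds are bounds from 3 reads per library. Such limits cover counting error only. LEFTY2 minus LEFTY1 was tested by exact permutation, and correlations by 100000 resamples. Intervals are at 95%. On simulated data, 88% of 200 changed probes were recovered for ectoderm against hESC (903 probes), 90% for CEPT against Y-27632 (867) and 66% for CEPT against hESC (940). No replicate pair was near sampling noise, the lowest chi-square per degree of freedom being 4.93.

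Genes outside the members were named from the pathway list where on the panel, by the 3 nearest profiles, or as endoderm-expressed genes beside ectoderm values. Members, lists and tests were chosen with earlier results of these data known. Replicate numbers could pair samples. Deviations of same-numbered ectoderm and endoderm libraries correlated at 0.110 to 0.437 in all 4 pairs. By the limit of 0.1 the numbers were taken to pair those groups, and no other groups. Ectoderm and mesoderm passed that limit in 3 of 4 pairs (median 0.232, highest 0.624) and mesoderm and endoderm in 2 (highest 0.426), so a wider pairing of the lineages is possible. Alternatives were other scalings, filters, DESeq2 1.42.0, a replicate block, probes summed per gene, other sets of libraries in the fit and leaving out each library. Promoters were read from RefSeq's GRCh38.p14 table and probe stretches from GENCODE transcripts. Probe sequences, proteins and the LEFTY promoters were not used here.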

Additional observations from a re-analysis of the deposited data

Results flagged for a closer look

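Within the groups of 4 control libraries, 2 of 52 combinations of a group and a measure (3.85%) had 1 library far from the other 3, where chance gives about 5%. LEFTY1 probe 425 stood at 5.88 log2 CPM in hESC replicate 3, against 6.17 to 6.19 in the other hESC libraries. TDGF1 probe 725 stood at 9.42 log2 CPM in endoderm replicate 3, against 9.15 to 9.19 in the other endoderm libraries. Neither LEFTY1 nor TDGF1 lost a call against hESC when that library was left out.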

How the results depend on the processing

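Leaving out single libraries moved the shift in LEFTY2 minus LEFTY1 from hESC between 2.77 and 3.27 in ectoderm, 1.83 and 2.86 in mesoderm and 4.20 and 4.37 in endoderm, where 3 against 4 libraries cannot pass the test. With all probes of a gene summed the shifts were 2.72, 2.05 and 4.14 and no longer passed. The count of member probes called ran from 4 to 10 for ectoderm against mesoderm and from 5 to 8 for CEPT EBs against ectoderm, the lowest without ectoderm replicate 4. LEFTY2 ran from -2.60 to 0.77 in ectoderm against hESC and from -1.99 to 1.29 in Y-27632 EBs against ectoderm, GDF3 from -0.038 to 0.87 between the EB arms, and LEFTY1 from -0.33 to 2.76 in CEPT EBs against ectoderm. In Y-27632 EBs 1 pair of member genes passed at a prior count of 0.5.

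Requiring 10 reads in every library removed nearly all member probes by construction, leaving 0 called in each comparison of controls, in Y-27632 EBs against hESC and in both arms against ectoderm, and 1 in CEPT EBs against hESC. Over all probes it called 426 (ectoderm), 395 (mesoderm) and 400 (endoderm) against hESC, 428 for ectoderm against mesoderm, 411 and 404 for ectoderm and mesoderm against endoderm, 426 and 407 for CEPT and Y-27632 EBs against hESC, and 433 and 426 against ectoderm. Summing probes per gene left, in the same order, 333, 316, 331, 339, 335, 322, 325, 323, 316 and 314 genes called, and 112 between the EB arms, since fewer features were tested. Member genes called were then 3 of 4 in ectoderm against hESC, in Y-27632 EBs against hESC and in CEPT EBs against ectoderm, 2 in Y-27632 EBs against ectoderm, and 4 in the others outside the comparison of the arms.

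DESeq2, which gave no p-value for 4 members in each control comparison, called 7 in endoderm against hESC and in both comparisons of a lineage with endoderm, 5 in ectoderm against mesoderm and 5 in CEPT EBs against ectoderm. A single fit of 48 libraries called 7 members in endoderm against hESC and 5 in ectoderm against mesoderm, where the cause was not tested. A fit of only ectoderm and mesoderm called 3, the other 7 being removed by its filter on low counts.

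Between the EB arms 205 probes were called, 339 under library totals and 439 under reference genes, and 44.9%, 14.2% and 7.97% of these were higher with CEPT (58.8% under DESeq2's size factors). GDF3 turned to -0.22, -0.39 and, summed per gene, -0.0028, none called. Against hESC, reference genes moved the higher share from 52.9% to 66.5% (ectoderm), 43.9% to 68.0% (mesoderm), 49.2% to 64.1% (endoderm) and 56.0% to 77.4% (Y-27632 EBs). Library totals moved it to 54.9% in mesoderm, from 50% to 60.3% and 48.8% to 64.4% for ectoderm and mesoderm against endoderm, and from 44.9% to 62.7% for Y-27632 EBs against ectoderm (61.1% under reference genes). Of the member calls none turned direction under 4 scalings, and 1 mesoderm call was lost. LEFTY1 in CEPT EBs against ectoderm turned to -0.16 under reference genes and -0.0032 in the fit of 48 libraries, neither called.

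With the replicate number as a block, LEFTY2 gave -0.35 in ectoderm against hESC. It gave -5.76 and -4.93 in CEPT and Y-27632 EBs against hESC, where both passed. The hESC and ectoderm libraries are numbered 1 to 4, so EB libraries with higher numbers share no block with them. Block values of EBs against these groups thus rest on EB replicates 1 to 4. In Y-27632 EBs those had 1, 16, 11 and 0 reads of the leading LEFTY2 probe, against 402 and 348 in replicates 10 and 16. The block values are therefore not read as falls over the whole arms. LEFTY1 gave 0.044 between the EB arms and -0.18 and -0.76 in CEPT and Y-27632 EBs against ectoderm, none called, and 5 members were called in CEPT EBs against ectoderm. For ectoderm against endoderm, where the numbers were taken to pair the samples, the block changed no member call. Nor did it change one between either of these groups and mesoderm.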
